A study of Homo sapiens with 9 samples.

Results

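The keratin genes followed here were KRT7, KRT8, KRT18, KRT19 and KRT10. They were chosen by gene symbol from a table of 17911 genes, and all 5 were among the 16985 genes that passed the filter on low counts. RNA was sequenced from 9 samples labelled MDA-MB-231, an established cell line from a human triple-negative breast cancer. The labels give 3 capsules and 6 liquid overlay spheroids, 3 small and 3 large. Capsules and spheroids carry the same wild-type label and the same treatment, which was 5% Matrigel following trastuzumab, an antibody against ERBB2, with 96 h of incubation before RNA extraction. Cells were maintained in RPMI medium with 10% serum. No sample without Matrigel or trastuzumab was analysed here.

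Column names tied the 3 capsule libraries to their samples. The 6 spheroid libraries formed 2 sets of 3 by name, L.O. and Sph.WT, and neither name gives a size. The sets are therefore called by these names, and either could hold the small or the large spheroids. The Sph.WT columns also differ from the other 6 in how their alignment files were named, which cannot be told apart from the set itself. Nothing in the labels says that replicates came from separate cultures, so p-values measure only the spread between these samples, which may be technical.

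Keratins are the intermediate filament proteins of epithelial cells. A filament is built from pairs of a type I and a type II keratin, and a keratin without a partner is usually degraded. KRT8 (type II) and KRT18 (type I) are the primary pair of simple, single-layered epithelia, where KRT7 (type II) and KRT19 (type I) are often added. In breast tissue these 4 mark the luminal layer, and breast cancer cell lines commonly keep them. KRT10 is a type I keratin of the upper layers of the epidermis, where its partner is KRT1, so it is not a simple epithelial keratin.

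In RefSeq's GRCh38.p14 annotation, KRT7 (Entrez 3855) lies at chr12:52233243-52255853 on the plus strand. KRT8 (Entrez 3856, chr12:52897191-52949860, minus strand) and KRT18 (Entrez 3875, chr12:52948855-52952906, plus strand) are neighbours whose annotated spans overlap by 1006 bp. KRT19 (Entrez 3880) lies at chr17:41523617-41528308 and KRT10 (Entrez 3858) at chr17:40818117-40822614, both on the minus strand. The rod of every keratin opens with a conserved stretch. For the 3 type I members the 48 coding bases there are shown because they tell how alike these genes are where a short read could match more than 1 of them. They come from GENCODE release 29 transcripts on GRCh38, are exonic, and read 5′ to 3′ along the mRNA. Capitals mark bases of KRT19 and KRT10 that differ from KRT18.
KRT18, chr12:52949414-52949461, plus strand: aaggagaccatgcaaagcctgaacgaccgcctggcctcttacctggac
KRT19, chr17:41527960-41528007, minus strand: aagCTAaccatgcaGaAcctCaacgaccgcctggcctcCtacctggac
KRT10, chr17:40822100-40822147, minus strand: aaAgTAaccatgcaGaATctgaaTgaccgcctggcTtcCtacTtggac

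KRT19 matched KRT18 at 41 of these 48 bases, and KRT10 matched KRT18 at 38. Over the whole transcripts compared, the longest runs shared by pairs of these 3 members were 16 to 24 bp. Processed copies in the genome are the other source of uncertain reads. GENCODE release 29 lists 50 pseudogenes named for KRT8, 68 for KRT18, 5 for KRT19 and none for KRT7 or KRT10. The counts table holds 1 of these 123, KRT18P55, with 18 counts in total in capsules, 33 in L.O. and 2 in Sph.WT libraries. How reads from the other copies were assigned is not given in the sources used here.

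The libraries held 13212665 to 13735221 counts in capsules, 15525725 to 15988167 in L.O. and 16605098 to 33263076 in Sph.WT. Of 25 marker genes for the MDA-MB-231 label, 21 are not keratins, and all 21 were lower in capsule and in L.O. than in Sph.WT libraries by edgeR's quasi-likelihood test. Of all genes, 42% were called lower in capsules and 43.1% in L.O. than in Sph.WT. The summed level of the 21 markers was 658 to 663 CPM (counts scaled to a common library total, with edgeR's TMM factors) in capsules, 821 to 931 CPM in L.O. and 13617 to 14179.8 CPM in Sph.WT libraries. CDKN2A, a gene lost from the MDA-MB-231 genome, averaged 505 ± 47.2 CPM in capsules, 483 ± 105 CPM in L.O. and 0.856 ± 0.139 CPM in Sph.WT libraries (SD, n = 3 each). The capsule and L.O. libraries therefore go against their label, and every difference from Sph.WT below is one between libraries that differ in this way. Capsules and L.O. also differed from each other in these markers. Of the 21, 15 were lower and 0 higher in capsules than in L.O., beside 23% of all genes called lower. Differences between capsules and L.O. below are thus not free of a marker difference either. Among other marker lists, 9 neuronal or embryonic kidney genes summed to 2248 to 2454 CPM in capsules, 1986 to 2122 in L.O. and 102 to 115 in Sph.WT. The sums of 4 basal or squamous genes were 50.9 to 61.3, 81.5 to 93 and 3.76 to 4.6 CPM in the same order, with TP63 at 0 in capsules and DSC3 at 0 in Sph.WT. Immune, fibroblast, endothelial and mesothelial lists summed to at most 47.3 CPM in capsules, 90.3 in L.O. and 258 in Sph.WT. The part of these markers in the keratin differences was not tested. In bulk RNA, fewer cells of a type and less RNA per cell cannot be told apart.

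Levels below are on the same TMM scale unless stated. KRT8, the primary type II keratin, had 95.03, 93.11 and 95.65 CPM in capsules 1 to 3, 163, 159 and 147 CPM in L.O. 1 to 3, and 628, 683 and 604 CPM in Sph.WT 1 to 3. The 3 sets did not overlap, and capsules were the lowest. KRT18, its type I partner, had 65.24, 70.25 and 63.3 CPM in capsules, 81.7, 74.2 and 74.83 CPM in L.O., and 349.9, 408 and 344 CPM in Sph.WT libraries. Again no sets overlapped, although the highest capsule library lay close under the lowest L.O. library.

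KRT7, the added type II keratin, had 19.15, 19.61 and 14.42 CPM in capsules, 14.49, 18.32 and 13.17 CPM in L.O., and 521, 511 and 477 CPM in Sph.WT libraries. Capsule and L.O. libraries overlapped, and both lay far under every Sph.WT library. KRT19, the added type I keratin, had 26.05, 25.89 and 20.59 CPM in capsules, 21.49, 24.7 and 15.96 CPM in L.O., and 368, 299.9 and 339.6 CPM in Sph.WT libraries. Its capsule and L.O. libraries overlapped in the same manner.

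KRT10, the epidermal keratin, had 45.35, 23.35 and 33.82 CPM in capsules, 24.18, 37.08 and 47.88 CPM in L.O., and 48.16, 33.93 and 38.2 CPM in Sph.WT libraries. All 3 sets overlapped. KRT10 was also the most variable member within each set, with a coefficient of variation of 32.2% in capsules, 32.6% in L.O. and 18.2% in Sph.WT. The highest library exceeded the lowest 1.94-fold in capsules, 1.98-fold in L.O. and 1.42-fold in Sph.WT. KRT10-AS1, a gene on the opposite strand whose span overlaps KRT10 by 3470 bp, did not spread in this way. It averaged 17 ± 0.166 CPM in capsules, 18 ± 0.977 CPM in L.O. and 30.9 ± 1.08 CPM in Sph.WT (SD, n = 3 each). Strand use in counting is not given, so reads in the overlap cannot be told apart, and this holds for KRT8 and KRT18 as well.

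**Figure D1:**
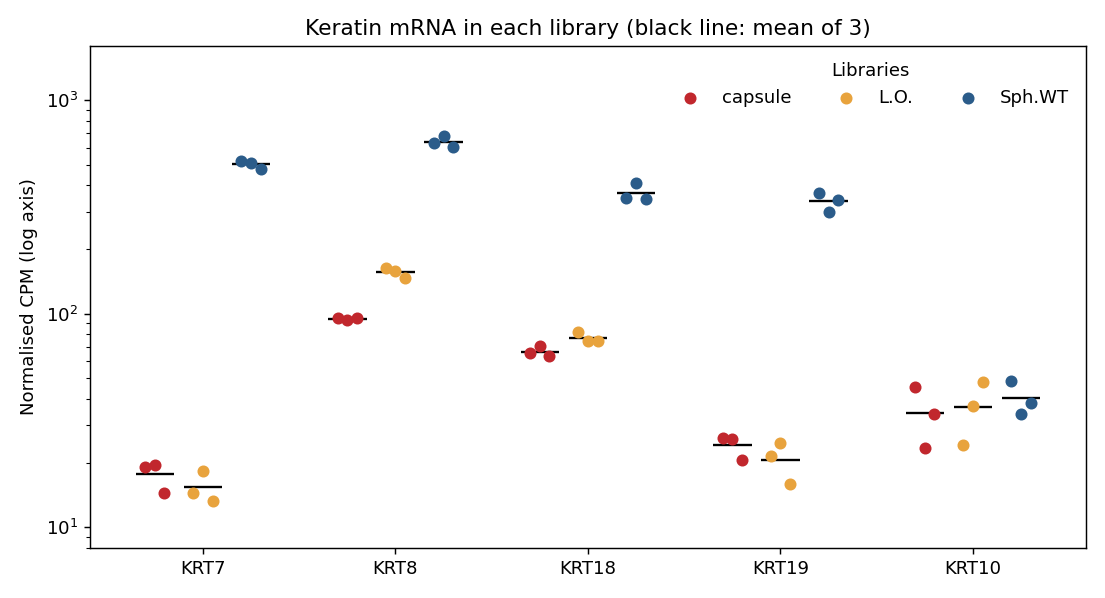
Normalised CPM on a log axis for each keratin, with 1 point per library and a black line at the mean of 3 libraries. For KRT7, KRT8, KRT18 and KRT19 the Sph.WT points lie above all capsule and L.O. points, whereas the KRT10 points of the 3 sets overlap between 23.35 and 48.16 CPM.

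Against Sph.WT libraries, 4 of the 5 keratins were lower in capsules and KRT10 did not pass the test. In this comparison 42% of all genes were called lower, 43% higher and 85% in either direction, so a low keratin was not unusual. Calls are at an adjusted p under 0.05 by edgeR's quasi-likelihood test with Benjamini-Hochberg adjustment over all genes tested, and fold changes are on the log2 scale with their standard error. KRT7 differed most, at -4.83 ± 0.12 (28.4-fold lower, edgeR adjusted p = 8.9e-21), followed by KRT19 at -3.80 ± 0.12 (13.9-fold lower, edgeR adjusted p = 2.4e-18). The primary pair differed less. KRT8 was at -2.76 ± 0.08 (6.75-fold lower, edgeR adjusted p = 1.1e-19) and KRT18 at -2.47 ± 0.08 (5.55-fold lower, edgeR adjusted p = 4.5e-18). KRT10 was at -0.23 ± 0.20 (edgeR adjusted p = 0.28), a difference that became -0.48 with an edgeR adjusted p of 0.028 without capsule 1. On library totals in place of TMM its difference turned to 0.09. Groups did not overlap for the 4 keratins called, as for 42.3% of all genes with every capsule library lower.

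Between the L.O. and Sph.WT libraries, which are both labelled as spheroids, the same 4 keratins were lower in L.O. and KRT10 was not called. Here 43.1% of all genes were called lower, 42.4% higher and 85.5% in either direction, and 43.2% had every L.O. library under every Sph.WT library, as those 4 keratins did. KRT7 was at -5.03 ± 0.12 (32.8-fold lower, edgeR adjusted p = 4.1e-21) and KRT19 at -4.02 ± 0.12 (16.2-fold lower, edgeR adjusted p = 8.3e-19). KRT18 was at -2.26 ± 0.08 (4.78-fold lower) and KRT8 at -2.03 ± 0.07 (4.08-fold lower), both with an edgeR adjusted p of 1.6e-17. KRT10 was at -0.13 ± 0.19 (edgeR adjusted p = 0.51), and on library totals it turned to 0.33.

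Capsule and L.O. libraries differed far less. KRT8 was lower in capsules at -0.73 ± 0.07 (1.66-fold lower, edgeR adjusted p = 1e-07), and KRT18 at -0.21 ± 0.08 (1.16-fold lower, edgeR adjusted p = 0.037). These are 2 of 5 members called lower, against 23% of all genes called lower, 22.5% higher and 45.5% in either direction. Both also had every capsule library under every L.O. library, as 27.8% of all genes did. The KRT18 call was lost without capsule 1, capsule 3, L.O. 1 or L.O. 2, with edgeR adjusted p-values of 0.12, 0.15, 0.14 and 0.053. KRT7 was at 0.21 ± 0.12 and KRT19 at 0.22 ± 0.13, both with an edgeR adjusted p of 0.17. KRT7 was called higher without capsule 3 (0.34) or without L.O. 2 (0.36), each with an edgeR adjusted p of 0.031, and KRT19 was called higher without L.O. 2 (0.37, edgeR adjusted p = 0.04). KRT10 was at -0.09 ± 0.20 (edgeR adjusted p = 0.73). The comparisons with L.O. and with Sph.WT share the capsule libraries.

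Set against the mean of both spheroid sets, capsules had lower KRT7 (-2.31 ± 0.11), KRT8 (-1.74 ± 0.07), KRT18 (-1.34 ± 0.07) and KRT19 (-1.79 ± 0.11), with edgeR adjusted p-values between 3.5e-16 and 1.7e-12. KRT10 was at -0.16 ± 0.17 (edgeR adjusted p = 0.41). Of all genes, 35.6% were called lower, 38.9% higher and 74.4% in either direction. Only KRT8 and KRT18 had every capsule library under every spheroid library, as 12.5% of all genes did. These calls rest on separate means for the 2 sets. With all 6 spheroid libraries as 1 group, the 4 keratins lost their calls, with edgeR adjusted p-values of 0.16 for KRT7, 0.11 for KRT8, 0.15 for KRT18 and 0.17 for KRT19. In that fit 639 genes were called in all, against 12643 with separate means.

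**Figure D2:**
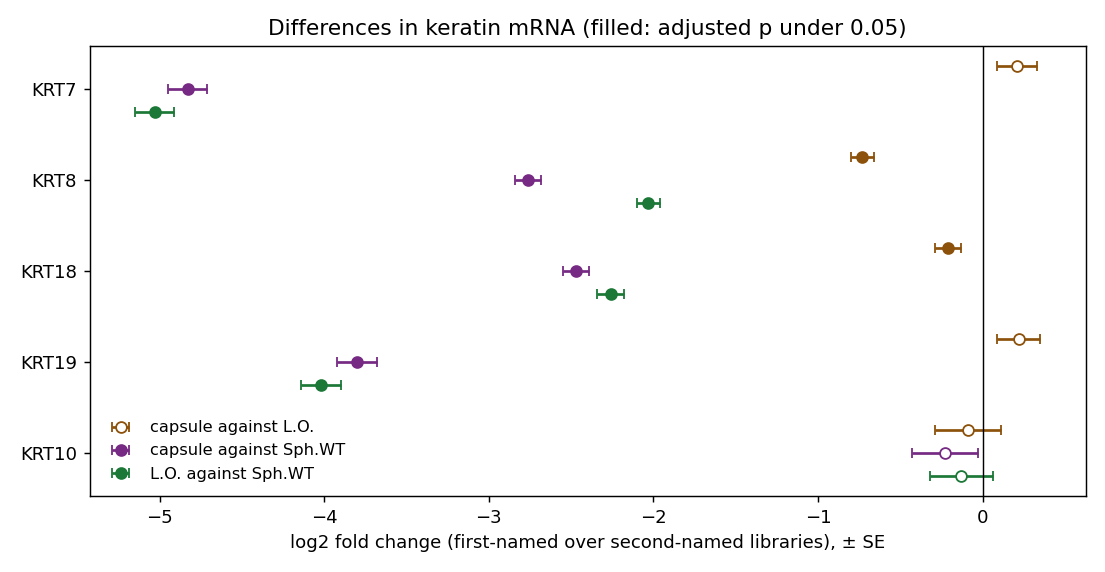
Log2 fold change ± SE of each keratin in 3 comparisons, with the first-named libraries over the second-named, and filled points where edgeR's adjusted p was under 0.05. KRT7 lies farthest left against Sph.WT, at -4.83 for capsules and -5.03 for L.O., whereas every KRT10 point is open.

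The order of the 5 keratins within a library can be compared only per length. Per kilobase of the main annotated transcript, KRT8 was at 44.5 ± 0.624 CPM in capsules, 73.7 ± 3.96 in L.O. and 300.3 ± 18.9 in Sph.WT (SD, n = 3 each, here and below). KRT18 was at 42.4 ± 2.3, 49.2 ± 2.66 and 235 ± 22.7 CPM per kilobase in capsules, L.O. and Sph.WT. By this length, KRT8 and KRT18 did not differ beyond their spread in capsules, and KRT8 was the higher in every L.O. and Sph.WT library. KRT19 was at 17.4 ± 2.24, 14.9 ± 3.18 and 242 ± 24.5 CPM per kilobase in the same 3 sets.

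KRT7 was at 10.1 ± 1.64 CPM per kilobase in capsules, 8.74 ± 1.53 in L.O. and 287 ± 13.1 in Sph.WT. KRT10 was at 16.1 ± 5.18, 17.1 ± 5.59 and 18.9 ± 3.44 CPM per kilobase. KRT7 was thus the lowest member in every L.O. library and in capsules 1 and 3, with KRT10 the lowest in capsule 2, whereas KRT10 was the lowest in every Sph.WT library. KRT19 and KRT10 did not differ beyond their spread in capsules or L.O., nor did KRT10 and KRT7 in capsules. In Sph.WT, neither KRT8 and KRT7 nor KRT19 and KRT18 did. With joined exons of all transcripts as the length, KRT7 was lowest in every capsule and L.O. library and KRT10 again in every Sph.WT library, but the order among the other members changed. KRT18 then lay above KRT8 in L.O. 1, L.O. 3 and every capsule and Sph.WT library.

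Ratios between keratins within a library do not depend on the library scaling. The ratio of type II (KRT7 and KRT8) to type I (KRT18 and KRT19), per length of the main transcript, was 0.919, 0.864 and 0.962 in capsules. It was 1.25, 1.31 and 1.29 in L.O. and 1.21, 1.28 and 1.2 in Sph.WT libraries. Every capsule library lay below every spheroid library, with means of 0.915 ± 0.0488 in 3 capsules and 1.26 ± 0.0451 in 6 spheroid libraries. The log2 difference was -0.46 by a two-sided exact permutation test (p = 0.0238, the smallest that 3 against 6 allows, and 0.0357 after Benjamini-Hochberg adjustment over 6 measures). Here and below, this test treats the 6 spheroid libraries as interchangeable and ignores the L.O. and Sph.WT sets. Where libraries of a set are alike, its p-values may be too small. The log2 difference was -0.49 against L.O. and -0.43 against Sph.WT alone, where an exact permutation test of 3 against 3 cannot go below 0.1.

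The primary pair showed the same direction. Both of its genes are part of the ratio above, so this is not a separate result. KRT8 over KRT18 was 1.07, 0.974 and 1.11 in capsules, 1.47, 1.58 and 1.44 in L.O. and 1.32, 1.23 and 1.29 in Sph.WT libraries. Capsules again lay below all 6 spheroid libraries, with a log2 difference of -0.40 (exact permutation p = 0.0238, adjusted 0.0357). The difference was -0.51 against L.O. and -0.28 against Sph.WT alone.

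The added keratins gave no direction common to both spheroid sets. KRT7 over KRT8 was 0.227 ± 0.0391 in capsules, 0.118 ± 0.018 in L.O. and 0.956 ± 0.0491 in Sph.WT. Capsules lay above every L.O. library and below every Sph.WT library, with log2 differences of 0.94 and -2.09. KRT19 over KRT18 was 0.409 ± 0.0418 in capsules, 0.303 ± 0.0675 in L.O. and 1.04 ± 0.188 in Sph.WT. Capsules overlapped L.O. and lay below Sph.WT, at 0.45 and -1.33. Over both spheroid sets the differences were -0.57 for KRT7 over KRT8 (exact permutation p = 0.524, adjusted 0.524) and -0.44 for KRT19 over KRT18 (exact permutation p = 0.476, adjusted 0.524). Leaving out 1 library moved them to between -0.90 and -0.26 and between -0.68 and -0.22. They were larger in size without any 1 L.O. library and smaller without any 1 Sph.WT library.

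**Figure D3:**
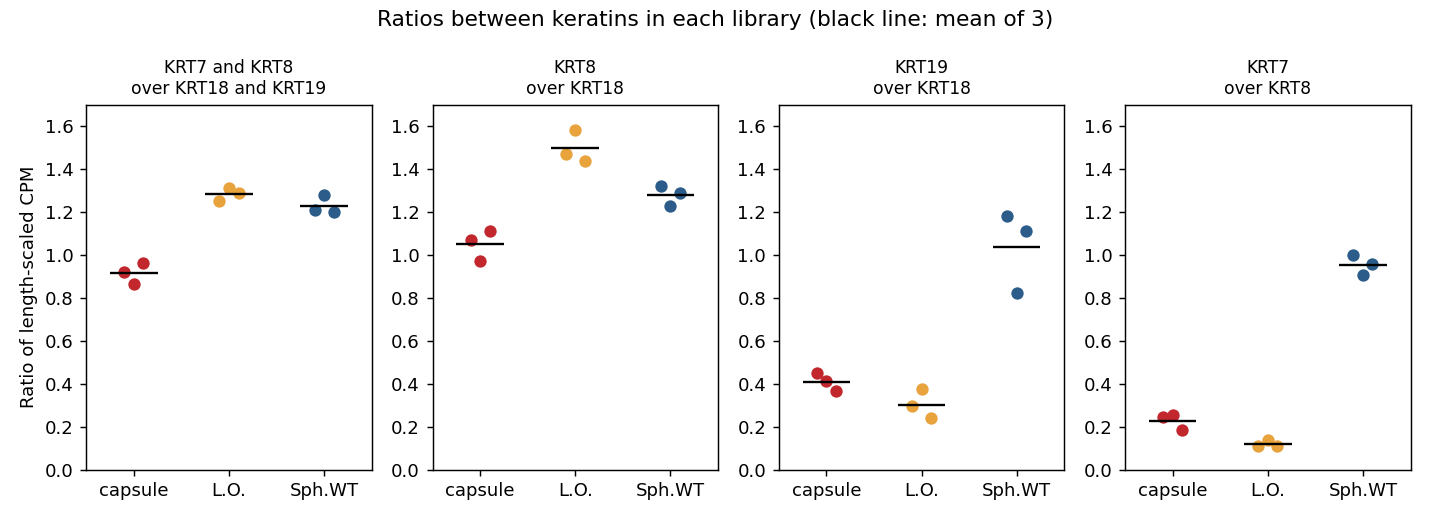
Ratios of length-scaled CPM between keratins, with 1 point per library and a black line at the mean of 3 libraries. Capsules lie below both spheroid sets for type II over type I (mean 0.915) and for KRT8 over KRT18, whereas for KRT7 over KRT8 they lie between L.O. (0.118) and Sph.WT (0.956).

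The 4 simple keratins together, as CPM on library totals, came to 210.4 ± 6.06 in capsules, 310.4 ± 17.8 in L.O. and 1541 ± 36.6 in Sph.WT. Their sum was lower in every capsule library than in any spheroid library, with a log2 difference of -1.72 (exact permutation p = 0.0238, adjusted 0.0357), -0.56 against L.O. and -2.87 against Sph.WT. L.O. and Sph.WT differed in this sum far more than capsules and L.O. did, and the test ignores these sets. VIM, the mesenchymal intermediate filament, also differed. It averaged 327 ± 3.15 CPM in capsules, 444 ± 30 in L.O. and 1175 ± 51.6 in Sph.WT. KRT8 over VIM per length was 0.291 ± 0.0013, 0.354 ± 0.00621 and 0.547 ± 0.0572 in capsules, L.O. and Sph.WT, so KRT8 was lower relative to VIM in capsules (log2 difference -0.60 over both sets, exact permutation p = 0.0238, adjusted 0.0357).

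The table lists 17 keratin genes, and the 4 simple keratins made up most of their summed CPM. Their share was 68.8, 73.6 and 70% in capsules, 68.9, 66.4 and 65.1% in L.O. and 85.4, 85.7 and 85.4% in Sph.WT libraries. These shares are of CPM without scaling by length, so they do not give the order per length. KRT8 took the largest share of any member in each library, at 31.8 to 34.5% in capsules, 38.2 to 40% in L.O. and 28.7 to 30.8% in Sph.WT. Per kilobase of the main transcript, KRT18 was instead the highest in capsule 2 and KRT7 in Sph.WT 1. By joined exons KRT19 was the highest in every Sph.WT library. KRT7 took 5.21 to 6.91% in capsules, 3.41 to 4.39% in L.O. and 23 to 23.8% in Sph.WT. KRT10 took 8.23 to 15.2% in capsules, 5.93 to 12.4% in L.O. and 1.53 to 2.2% in Sph.WT.

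**Figure D4:**
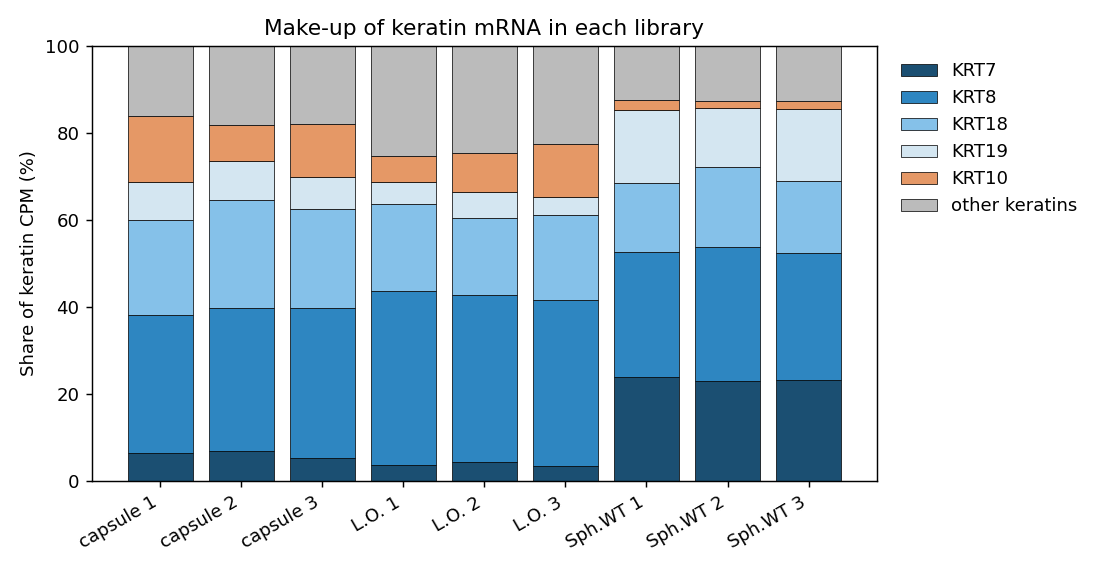
Share of the summed CPM of 17 keratin genes taken by each of the 5 members and by the other keratins, as stacked bars that add to 100% for each library. CPM are not scaled by length here. KRT7 and KRT19 take larger shares in Sph.WT than in capsule and L.O. libraries, and the other keratins take their largest shares in L.O.

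Genes whose pattern over the 9 libraries came nearest to each keratin are given as a description. Nearness was the root mean square difference of gene-centred log2 CPM, with 0.5 CPM added before the log. For KRT8 the nearest genes were TRIM56 (0.058), CLIP2 (0.077) and TEAD3 (0.091), and for KRT18 they were LATS2 (0.042), SAMD4A (0.068) and ACTN1 (0.076). ANXA8L1 (0.154), TIMP3 (0.184) and ARHGEF35 (0.187) came nearest to KRT7. ANXA8L1 and ARHGEF35 were at 0.431 and 0.189 CPM in capsules, 0.33 and 0.184 in L.O., and 23.1 and 20.9 in Sph.WT. At the low levels the added 0.5 CPM shrinks log2 differences, so their closeness to KRT7 rests partly on it. NIBAN2 (0.165), STAT5A (0.166) and FAM3C (0.166) came nearest to KRT19. KRT10 was nearest to NUDT3 (0.140), TMEM160 (0.175) and INAFM1 (0.204). Between members, KRT8 and KRT18 differed by 0.217 and KRT7 and KRT19 by 0.489, whereas KRT7 and KRT8 differed by 1.255. Many other genes lay closer, with KRT18 at rank 124 among those nearest to KRT8 and KRT19 at rank 306 for KRT7.

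Other keratins did not follow one direction. Of 30 listed, 8 are in the table, and 4 of these were higher and 4 lower in capsules than in Sph.WT. KRT80, an epithelial type II keratin, was at 0.593 CPM in capsules, 0.7 in L.O. and 232 in Sph.WT (capsule against Sph.WT -8.59 ± 0.14, edgeR adjusted p = 1.6e-23). KRT17, a type I keratin of basal cells and stressed epidermis, was at 11.6, 46.7 and 0.0644 CPM in capsules, L.O. and Sph.WT. KRT75, a hair follicle keratin, was at 1.62 and 16.7 CPM in capsules and L.O. and had no count in Sph.WT, where a floor of 3 counts over the set makes it at least 31.3-fold higher in capsules and at least 323-fold higher in L.O. Against L.O., capsules had lower KRT17 (-2.01 ± 0.11, edgeR adjusted p = 1.8e-11) and KRT75 (-3.37 ± 0.20, edgeR adjusted p = 3.3e-10), and the other 6 were not called. Of all genes, 43% were called higher and 42% lower against Sph.WT, and 22.5% and 23% against L.O., and these shares are the background for each list that follows. The list's median log2 fold change was -0.02 against Sph.WT and -0.26 against L.O., beside 0.03 and -0.02 over all genes. The -0.02 against Sph.WT changed sign with other scalings.

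Of 15 other intermediate filament genes tested, 6 were higher and 8 lower in capsules than in Sph.WT, and 3 were higher and 9 lower than in L.O. These are 40% and 53.3% of the list against Sph.WT, beside 43% and 42% of all genes, and 20% and 60% against L.O., beside 22.5% and 23%. The list's medians were -0.48 and -0.53. The neurofilament genes NEFM, NEFL and INA were at 422, 136 and 85.9 CPM in capsules and at 299.7, 110.0 and 91.9 CPM in L.O. In Sph.WT, NEFM was at 0.0123 CPM, INA at 0.189 CPM, and NEFL had no count. NES, the intermediate filament nestin, was at 23.9, 54.7 and 29.7 CPM in capsules, L.O. and Sph.WT, and was lower in capsules than in L.O. (-1.20 ± 0.09, edgeR adjusted p = 1.4e-09).

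Desmosomes and plakins anchor keratin filaments to the membrane. Of 15 such genes tested, 5 were higher and 10 lower in capsules than in Sph.WT, and 1 was higher and 5 lower than in L.O., with medians of -0.65 and -0.23. The share lower was 66.7% against Sph.WT, beside 42% of all genes, and 33.3% against L.O., beside 23%. PLEC, which encodes the linker plectin, was at 329.6, 377 and 2683 CPM in capsules, L.O. and Sph.WT (capsule against Sph.WT -3.03 ± 0.08, edgeR adjusted p = 2.5e-20). EVPL (envoplakin) was at 0.976, 1.25 and 66 CPM and PKP3 (plakophilin 3) at 1.93, 2.51 and 52.2 CPM. The desmosomal cadherin DSC3 went the other way, at 42.8 and 41.4 CPM in capsules and L.O. with no count in Sph.WT, at least 827-fold higher in capsules by the same floor. Against L.O., capsules had lower JUP, the junction protein plakoglobin (104 against 207 CPM, -0.99 ± 0.09, edgeR adjusted p = 1.7e-08), and lower EPPK1, which encodes epiplakin (42.4 against 95.3 CPM, -1.17 ± 0.10, edgeR adjusted p = 8.4e-09). EPPK1 was at 2.04 CPM in Sph.WT, so it was higher in capsules there (4.44 ± 0.14, edgeR adjusted p = 2e-18).

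Among 27 genes of keratin binding and turnover tested, 7 were higher and 17 lower in capsules than in Sph.WT, with a median of -0.45. These are 25.9% and 63% of the list, beside 43% and 42% of all genes. SFN, the epithelial 14-3-3 protein, was at 1.42, 4.8 and 104 CPM in capsules, L.O. and Sph.WT (capsule against Sph.WT -6.18 ± 0.16, edgeR adjusted p = 3.4e-20). The autophagy receptor SQSTM1 was at 195, 229.5 and 1611 CPM. Against L.O., 10 were higher and 8 lower in capsules with a median of 0.11, or 37% and 29.6% of the list beside 22.5% and 23% of all genes. The counts became 5 higher and 9 lower with a median of -0.04 on library totals. The chaperones differed in direction against L.O., with HSPB1 lower (209 against 335 CPM, -0.68 ± 0.10, edgeR adjusted p = 1.5e-05) and HSPA8 higher in capsules (1025 against 812 CPM, 0.34 ± 0.08, edgeR adjusted p = 0.0019). Against Sph.WT, with 279.8 CPM of HSPB1 and 2062 CPM of HSPA8, both were lower in capsules (-0.42 ± 0.10 and -1.01 ± 0.08).

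Of 35 epithelial adhesion and polarity genes tested, 11 were higher and 22 lower in capsules than in Sph.WT, and 16 were lower and 19 not called against L.O. Against Sph.WT the 11 higher and 22 lower are 31.4% and 62.9% of the list, beside 43% and 42% of all genes. The 16 are 45.7% of the list, beside 23% of all genes called lower, and the list's median was -0.21 beside -0.02. ITGB4, the hemidesmosomal integrin chain, was at 6.25, 12.6 and 399 CPM in capsules, L.O. and Sph.WT (capsule against Sph.WT -6.00 ± 0.10, edgeR adjusted p = 1.6e-23). It was lower in capsules than in L.O. as well (-1.01 ± 0.11, edgeR adjusted p = 2.1e-07). CLDN4, a tight junction claudin, was at 5.68, 6.52 and 202 CPM. TJP3, a tight junction scaffold, was at 6.35, 16.4 and 17.4 CPM (capsule against L.O. -1.37 ± 0.14, edgeR adjusted p = 1.2e-07). The 11 genes higher in capsules than in Sph.WT went the other way. Among them, CGN was at 29.7, 43 and 6.17 CPM and SCRIB at 267, 299 and 169 CPM in capsules, L.O. and Sph.WT.

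Of 23 epithelial transcription and splicing regulators tested, 11 were higher and 9 lower in capsules than in Sph.WT, and 1 was higher and 9 lower than in L.O., with medians of 0.40 and -0.23. Against Sph.WT the shares of 47.8% and 39.1% lay near the 43% and 42% of all genes, and against L.O. they were 4.35% and 39.1%, beside 22.5% and 23%. The list mixes activators and repressors of epithelial genes, so its counts have no single expected direction. EHF, an epithelial ETS factor, was at 0.783, 0.571 and 242 CPM in capsules, L.O. and Sph.WT (capsule against Sph.WT -8.26 ± 0.15, edgeR adjusted p = 7.2e-23). CDX2, an intestinal homeobox factor, was at 38.8 and 35.6 CPM in capsules and L.O. and had no count in Sph.WT, at least 749-fold higher in capsules. SNAI1, a repressor of epithelial genes, was at 1.5, 3.5 and 1.36 CPM (capsule against L.O. -1.22 ± 0.24, edgeR adjusted p = 0.00024).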

How the data were processed

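The deposited table held counts of reads per gene for 9 libraries, whole numbers without normalization that the authors made on hg38 with tools including featureCounts and limma, per the submitters' processing notes. The aligner, annotation and strand setting are not given in the sources used here. Of its 17911 genes, 237 had no symbol, and 17667 Entrez IDs matched RefSeq. The 3 capsule columns matched samples by name, and the 6 spheroid columns matched a group only.

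Counts were fitted with edgeR 4.0.16 in R 4.3.3 with separate means for capsule, L.O. and Sph.WT libraries, TMM scaling (factors 0.8171 to 1.158) and filterByExpr, and tested over 16985 genes. Ratios and the sum were compared by exact permutation tests (scipy 1.17.1). Over both spheroid sets these tests take no account of which set a library belongs to. On data simulated for capsule against spheroid with 16555 genes, 93 of 100 genes changed 1.5-fold and 99 of 100 changed 2-fold were found, with 12 false calls. For capsule against L.O. and against Sph.WT, 91 and 86 of 100 changed 1.5-fold were found, and no change was simulated between L.O. and Sph.WT. Every library was simulated from 1 shared mean profile with 1 common coefficient of variation, 7.73%. These figures therefore do not cover genes as variable as KRT10, or sets that differ as widely as L.O. and Sph.WT. No 2 replicates agreed within counting noise (chi-square per degree of freedom 3.31 to 14.3), so none was taken as deposited more than 1 time. The floor behind lower bounds was 3 counts over a set, 0.0517 CPM in Sph.WT, and covers counting error only. Alternatives were other scalings, filters, DESeq2 1.42.0, limma-voom (limma 3.58.1), 1 spheroid group and leaving out each library.

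The members and lists were chosen with earlier results of these data known. Named genes are all members, their pseudogenes and antisense genes in the table, the 3 called genes of each list with the largest change and its most abundant gene (a selection of these is printed), and the 3 genes nearest to each member. CGN and SCRIB are named outside this rule, as genes that go against the others named from their list. Sequences and transcript lengths are from GENCODE release 29. Some sequences and genes are not reported here.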

Additional observations from a re-analysis of the deposited data

How the results depend on the processing

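Other scalings, filters and tools kept the direction and call of KRT7, KRT8, KRT18 and KRT19 in all 4 comparisons. With all spheroid columns as 1 group, 639 genes were called, with capsule against spheroid at -3.87 for KRT7, -2.07 for KRT8, -1.75 for KRT18 and -2.88 for KRT19, none of them called. KRT10, which was not called, turned direction. On library totals it was at 0.09 for capsule and 0.33 for L.O. against Sph.WT, and with upper quartile scaling at 0.06 and 0.24. Library totals moved the median of all genes by -0.15 (capsule against L.O.), 0.31 (capsule against Sph.WT) and 0.46 (L.O. against Sph.WT). The higher share of called genes then became 27.8% for capsule against L.O. (37.3% with upper quartile, 49.5% with TMM) and 63.9% for L.O. against Sph.WT (61.2% and 49.6%).

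Within 1 spheroid set, 3 against 3 cannot pass the threshold. L.O. columns alone gave log2 differences of -0.51 (KRT8 over KRT18), -0.49 (type II over type I), 0.45 (KRT19 over KRT18), 0.94 (KRT7 over KRT8), -0.28 (KRT8 over VIM) and -0.56 (sum). Sph.WT columns alone gave -0.28, -0.43, -0.91 and -2.87 for KRT8 over KRT18, type II over type I, KRT8 over VIM and the sum. Leaving out 1 library of capsules against both spheroid sets, the same 4 measures ranged from -0.44 to -0.34, -0.50 to -0.42, -0.66 to -0.50 and -1.97 to -1.48, with fewer splits and so no adjusted p under the threshold. KRT7 over KRT8 ranged from -0.90 to -0.26 and KRT19 over KRT18 from -0.68 to -0.22. The same ranges for KRT10 were -0.41 to 0.06 (capsule against spheroid), -0.34 to 0.15 (against L.O.), -0.48 to -0.01 (against Sph.WT) and -0.38 to 0.09 (L.O. against Sph.WT). Against L.O. they were 0.11 to 0.36 for KRT7, -0.26 to -0.17 for KRT18 and 0.06 to 0.37 for KRT19. No paired analysis was possible because the 6 spheroid columns could be matched to a group but not to samples, so their numbers pair nothing. Depth limits KRT75 (0 counts over all Sph.WT libraries) and KRT17 (4).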

Other observations

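Hair keratins went in both directions. KRT81 averaged 19.4, 17.4 and 31.7 CPM in capsule, L.O. and Sph.WT libraries (capsule against Sph.WT -0.70, edgeR adjusted p = 2.2e-05), and KRT86 averaged 1.29, 1.72 and 4.97 CPM (-1.92, edgeR adjusted p = 3.9e-06). Another 4, outside the lists above and chosen after their values were seen, had counts in capsule and L.O. but few in Sph.WT libraries. KRT32 had 93, 133 and 3 counts in total over the capsule, L.O. and Sph.WT libraries, and KRT38 had 98, 113 and 4. KRT35 had 49 counts in capsules and 57 in L.O., with 0 in Sph.WT. KRT36, which failed the filter on low counts, had 28 and 15 counts, with 0 in Sph.WT. None of KRT32, KRT35, KRT36 and KRT38 was above 2.45 CPM on average in any set.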
